A study of Homo sapiens and Canis lupus familiaris with 27 samples.

Results

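PDA-66 is an indolylmaleimide derivative that destabilizes microtubules, and the question addressed here is whether 2 human prostate carcinoma cell lines answered it differently within the first 12 h. For every gene, the response of PC-3 (PDA-66 against DMSO) was set against the response of LNCaP, and the difference between the 2 log2 responses was tested as an interaction. The comparison used 11 of the 27 samples of the series, and 11961 of the 23708 genes counted in both cell lines passed the filter on low counts in each line and were tested. PC-3 is an established, androgen-independent line from a bone metastasis, and LNCaP is an established, androgen-sensitive line from a lymph node metastasis. In both, cells received 15 µM PDA-66 for 12 h (3 samples each), and the control cells received 0.15% DMSO, the solvent of PDA-66. The control samples carry a label of 24 h, so that PDA-66 and the length of the incubation cannot be told apart in any response given here. There were 3 LNCaP controls (LD1, LD2, LD3) and 2 PC-3 controls (PD2, PD3), since the study excluded a further PC-3 control. The lines grew in different media, 1 line stands for each background, and the study's methods call the replicates of a condition independent biological ones, so p-values measure the spread between such replicates of 1 cell line.

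Drugs that disturb microtubules keep the mitotic spindle from attaching to all chromosomes, and the spindle assembly checkpoint then holds the cell in mitosis. Microtubule loss is also known to feed back on tubulin mRNA, on actin tension and on stress kinases.

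Levels are given as CPM, counts for each 1000000 of the library's TMM-scaled total, and were scaled within each line. The libraries held 15275005 to 18091755 counts in PC-3 and 11923105 to 14741883 in LNCaP. The defining markers followed the labels. The summed level of 10 markers of PC-3 (among them VIM and CAV1) was 3485 to 4317 CPM in PC-3 and 13.4 to 21 CPM in LNCaP. The summed level of 10 luminal markers was 4185 to 5383 CPM in LNCaP and 599 to 1438 CPM in PC-3. Of 11 markers of fibroblasts and immune cells, 3 or 4 had at least 10 counts in every library of a PC-3 group and 2 or 3 in those of a LNCaP group.

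One LNCaP library, L12-2 (PDA-66, replicate 2), stood apart from its group. In the fifth of genes with the lowest exon GC content its level was lower than that of the other LNCaP PDA-66 libraries by a median log2 value of -0.81, and in the fifth with the highest GC content it was higher by 0.99. For a further measure, each library was set against the mean of all libraries of its cell line, across 10813 genes. GC content and transcript length together accounted for 46.2% of the variance of these deviations in L12-2. The share was 0.734 to 8.0% in the PC-3 libraries and in LD1 and LD3, 19.7% in LD2, and 34.6% and 10.7% in L12-1 and L12-3. The LNCaP mean holds L12-2 and both treatments, so all LNCaP shares are measured against L12-2 as well. Spread between replicates, as edgeR's biological coefficient of variation, came to 0.288 for LNCaP when it was kept, 0.151 when it was left out, and 0.1 for PC-3. Counts of called genes are therefore given with and without L12-2, and a difference without it follows the value with all libraries for the genes described by their levels.

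**Figure D1:**
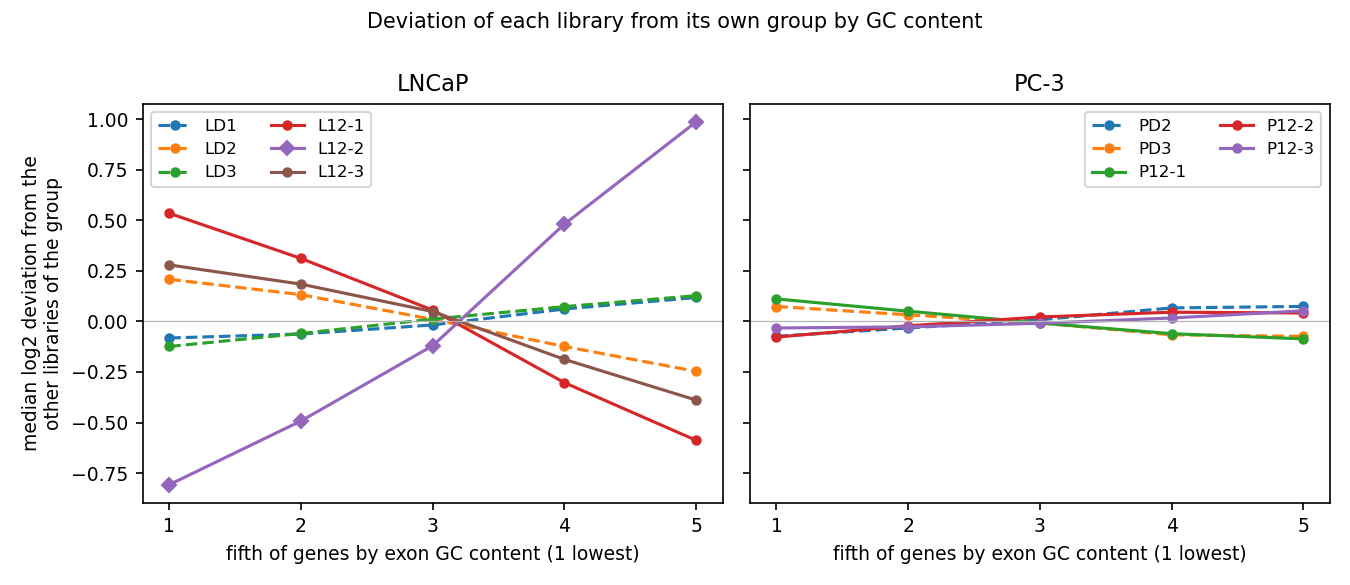
Median log2 deviation of each library from the other libraries of its own group (vertical axis) in 5 equal groups of genes ordered by exon GC content (horizontal axis), for LNCaP (left) and PC-3 (right). Dashed lines are DMSO libraries and solid lines PDA-66 libraries. The line of L12-2 climbs from -0.81 to 0.99.

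The response differed between the lines for 689 of the 11961 genes (5.76%, edgeR quasi-likelihood test with Benjamini-Hochberg adjusted p below 0.05). It was higher in PC-3 for 321 genes (2.68%) and lower for 368 (3.08%), with a median size of 1.67 on the log2 scale and a smallest called size of 0.78. Without L12-2 the count was 2539 (21.2%), 1205 (10.1%) higher and 1334 (11.2%) lower, and all 689 genes were among them with the same sign. The count depended on the libraries: it was 1065 without L12-1, 320 without LD2, 307 without LD3, 162 without PD3, 258 without P12-1, 253 without P12-2 and 274 without P12-3. P12-1 and P12-2 are the PC-3 PDA-66 libraries whose replicate numbers the labels do not settle.

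The responses of the lines on their own were called at very different rates. In PC-3, 6564 genes changed (54.9%), 3245 up (27.1%) and 3319 down (27.7%). In LNCaP, 3 genes changed with all libraries (0.0251%) by the edgeR quasi-likelihood test, 1 up (0.00836%) and 2 down (0.0167%), against 2224 at an unadjusted p below 0.05 and 873 by the Wald test of DESeq2. Without L12-2, 1884 genes changed in LNCaP (15.8%), 938 up (7.84%) and 946 down (7.91%). The larger spread of the LNCaP libraries stands beside these counts, which are not a measure of how strongly the lines responded: across the 11961 genes the standard deviation of the log2 responses was 0.740 in PC-3 and 0.567 in LNCaP without L12-2 (0.622 with it).

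Most of the genes called for the difference had estimates of opposite sign in the lines, which selection on the difference itself favours. Among all 11961 genes tested, 4132 had opposite signs when LNCaP was taken without L12-2. Of the 321 genes with a positive difference, 259 had an estimate above 0 in PC-3 and below 0 in LNCaP, 49 were above 0 in both and 13 below 0 in both. Of the 368 genes with a negative difference, 230 were below 0 in PC-3 and above 0 in LNCaP, 130 below 0 in both and 8 above 0 in both. Of the 689 genes, 626 also passed the test in PC-3, and the PC-3 PDA-66 and DMSO libraries did not overlap for 655 (70.8% of all genes tested did not overlap in PC-3, and 28.0% in LNCaP). With all libraries, 0 genes were called in both lines by edgeR, since LNCaP had 3 calls. Without L12-2, 155 genes changed in both lines in opposite directions and were called for the difference (87 up in PC-3, 68 down), 156 changed in the same direction by different amounts, and 1009 changed in the same direction with no call for the difference. Pearson's r between the responses across the 11961 genes, which are not independent replicates, was 0.309 with all libraries and 0.405 without L12-2.

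**Figure D2:**
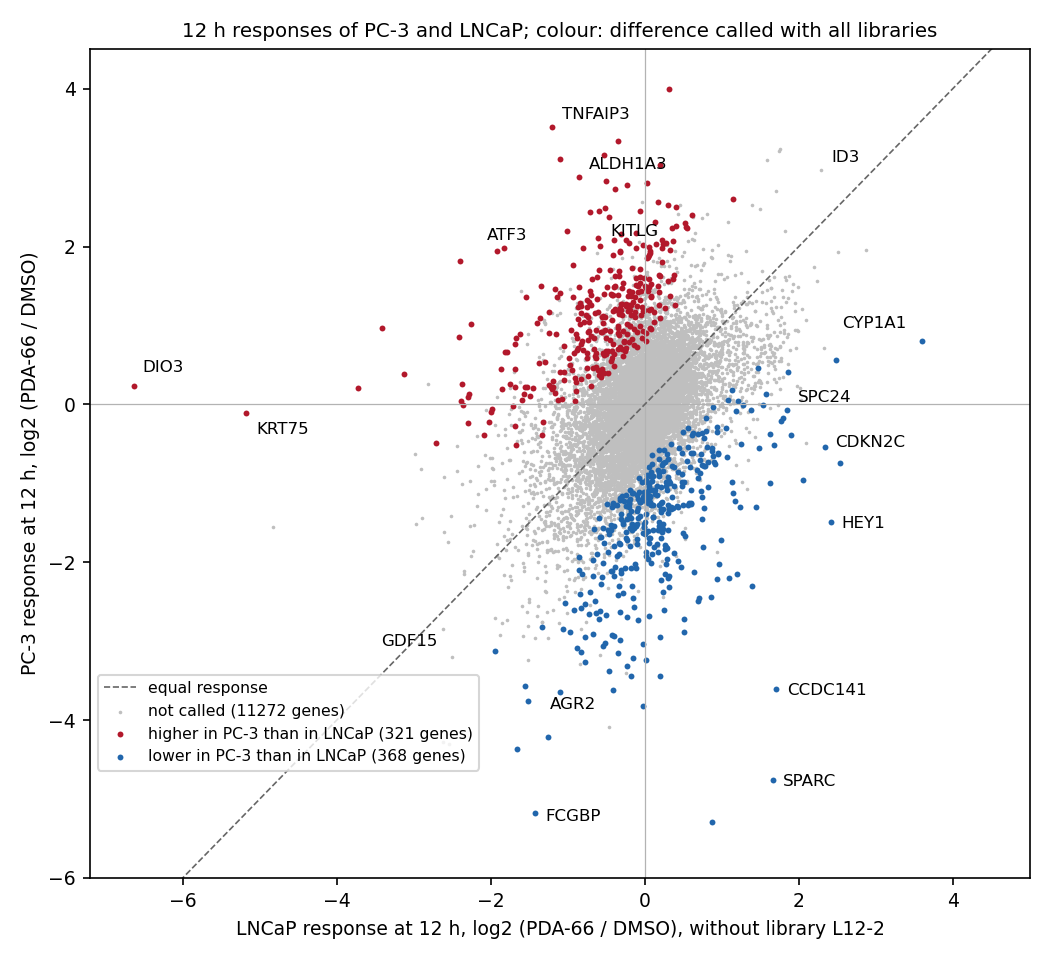
Log2 response (PDA-66 / DMSO) of each of 11961 genes in PC-3 (vertical axis) against LNCaP without L12-2 (horizontal axis), with the 321 genes called higher in PC-3 in red and the 368 called lower in blue. The coloured genes lie on both sides of the dashed line of equal response, many of them in the quadrants of opposite sign.

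The 10 largest positive differences among the 363 genes that were called with and without L12-2 and had a mean of at least 10 CPM in each line were those of ATF3, ALDH1A3, AKAP5, KITLG, TNFAIP2, EGFR, SAMD12, HIVEP1, MICAL2 and NAV1. ATF3, a stress-induced transcription factor (GRCh37 chromosome 1, 212738676 to 212794119, plus strand), went in opposite directions. In PC-3 it was at 17.3 and 46.4 CPM in PD2 and PD3 and at 128, 120.5 and 119 CPM in the PDA-66 libraries. In LNCaP it was at 76.5, 168 and 180.5 CPM in the controls and at 38.8, 29.6 and 36.1 CPM after PDA-66. The groups did not overlap in either line, and the PC-3 libraries under PDA-66 stood where the LNCaP controls did. The log2 response was 1.95 in PC-3 (adjusted p = 0.0015) and -2.02 in LNCaP, and the difference was 3.97 ± 0.569 (SE; 95% interval 2.73 to 5.22; edgeR quasi-likelihood adjusted p = 0.00436), or 3.87 without L12-2.

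ALDH1A3, which makes retinoic acid from retinaldehyde, was at 235 and 164 CPM in the PC-3 controls and at 1449.6, 1489 and 1454 CPM after PDA-66. In LNCaP it fell from 52.2, 68 and 77.8 CPM to 38.2, 35.3 and 34.5 CPM without overlap, a log2 response of -0.86 without L12-2 (edgeR adjusted p = 0.0184). The difference was 3.75 ± 0.29 (SE; edgeR adjusted p = 0.00013), and 3.74 without L12-2. Of the exon bases of ALDH1A3, 32.1% overlap its antisense gene, and whether counting used the strand is not stated.

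KITLG, the ligand of the receptor KIT, rose in PC-3 from 92.6 and 109.8 CPM to 433, 389.8 and 397 CPM. In LNCaP the controls were at 11.8, 19.2 and 11.2 CPM and the PDA-66 libraries at 10.7, 4.65 and 8.09 CPM. The difference was 2.85 ± 0.431 (SE; edgeR adjusted p = 0.00541), and 2.58 without L12-2. EGFR, the receptor of epidermal growth factor, had PC-3 controls that differed from each other (40.3 and 16.5 CPM), and all 3 PDA-66 libraries were above them at 107, 126 and 120.0 CPM. Its LNCaP groups overlapped (57.9 to 85 CPM in the controls, 28.8 to 65.5 CPM after PDA-66, the lowest of them L12-2). The difference of 2.55 ± 0.539 (SE; edgeR adjusted p = 0.0216) lost its call when any one of 5 libraries was left out, and was 2.25 without L12-2 (edgeR adjusted p = 0.00186).

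The 10 largest negative differences were those of FCGBP, MSMP, SLPI, AGR2, SPC24, CDKN2C, PNPLA7, TTN, MXD3 and C21orf58. AGR2, FCGBP, MSMP and TTN fell in PC-3. AGR2, a protein disulfide isomerase of the endoplasmic reticulum found in secretory epithelia, was at 996 and 603 CPM in the PC-3 controls and at 70.5, 60.2 and 64.8 CPM after PDA-66. In LNCaP it was at 243, 253 and 254 CPM in the controls and at 187, 242 and 187 CPM after PDA-66, where L12-2 lay just under the lowest control. Its difference was -3.34 ± 0.292 (SE; edgeR adjusted p = 0.000254), and -3.20 without L12-2.

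FCGBP, a mucus protein that binds the Fc part of IgG, was at 126 and 38.4 CPM in the PC-3 controls and at 2.25, 1.86 and 2.66 CPM after PDA-66. In LNCaP the groups overlapped through L12-2 (9.39 to 16.8 CPM and 4.64 to 11.3 CPM), and without it FCGBP fell there as well (log2 response -1.43, edgeR adjusted p = 0.0115). The difference was -4.23 ± 0.67 (SE; edgeR adjusted p = 0.00651), and -3.74 without L12-2. MSMP, which encodes a prostate-associated microseminoprotein, fell in PC-3 from 238 and 198 CPM to 14.3, 16.4 and 15.3 CPM and stayed between 7.89 and 14.6 CPM in all LNCaP libraries, with differences of -3.61 and, without L12-2, -3.8. All its exon bases overlap RGP1 on the opposite strand, so reads of the 2 genes cannot be told apart if the strand was not used. TTN, the giant muscle protein titin, fell in PC-3 (log2 response -3.21, edgeR adjusted p = 3.24e-06), with a response of -0.37 in LNCaP and differences of -2.84 and, without L12-2, -3.06.

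CDKN2C, MXD3 and C21orf58 had estimates above 0 in LNCaP and below 0 in PC-3. CDKN2C encodes p18-INK4C, an inhibitor of CDK4 and CDK6 (GRCh37 chromosome 1, 51426417 to 51440306, plus strand). It went in LNCaP from 22.5, 18.1 and 6.9 CPM to 74.6, 92.6 and 86.2 CPM and in PC-3 from 88.2 and 90.5 CPM to 60.5, 60.6 and 62.8 CPM. The difference was -2.95 ± 0.468 (SE; edgeR adjusted p = 0.00651) and -2.88 without L12-2, and the LNCaP response of 2.34 passed the test without L12-2 (edgeR adjusted p = 0.00611). SPC24, a subunit of the kinetochore complex that grips spindle microtubules, was at 14, 10.1 and 6.59 CPM in the LNCaP controls and at 34.7, 165 and 39.2 CPM after PDA-66, the highest of them L12-2. In PC-3 its groups overlapped (15.8 to 17.5 CPM and 14.2 to 17.4 CPM). Its difference was -3.03 with L12-2 and -1.92 without it (edgeR adjusted p = 0.0425 and 0.00147), and with L12-2 kept it lost its call when any one of 8 other libraries was left out. The same number of libraries decided the calls of SLPI and PNPLA7, whose differences were -3.39 and -2.94 with L12-2 and -1.91 and -2.02 without it.

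Without L12-2, the genes with the largest opposite changes in the lines were ATF3, UNC13D, C8orf4, CCDC141, SPARC and HEY1. SPARC, a secreted glycoprotein of the extracellular matrix, fell in PC-3 from 45.5 and 34 CPM to 1.07, 1.66 and 1.69 CPM and went in LNCaP from 2.8, 1.01 and 1.43 CPM to 5.72, 5.81 and 5.54 CPM. Its difference of -6.43 ± 0.47 (SE; edgeR adjusted p = 0.000106) was the most negative of all genes called with all libraries, and was -6.41 without L12-2. HEY1, a transcriptional repressor induced by Notch signaling, fell in PC-3 from 110.2 and 121 CPM to 43.3, 38.1 and 42 CPM and went in LNCaP from 1.01, 0.671 and 0.317 CPM to 3.5, 2.24 and 3.79 CPM, with differences of -3.72 and, without L12-2, -3.91. CCDC141 had differences of -5.23 with all libraries and -5.32 without L12-2. C8orf4 and UNC13D went the other way, up in PC-3 and down in LNCaP, with differences of 4.11 and 2.85 (4.21 and 3.8 without L12-2), at no more than 6.04 and 3.13 CPM in any library. The call of UNC13D was lost when any one of 9 libraries was left out.

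**Figure D3:**
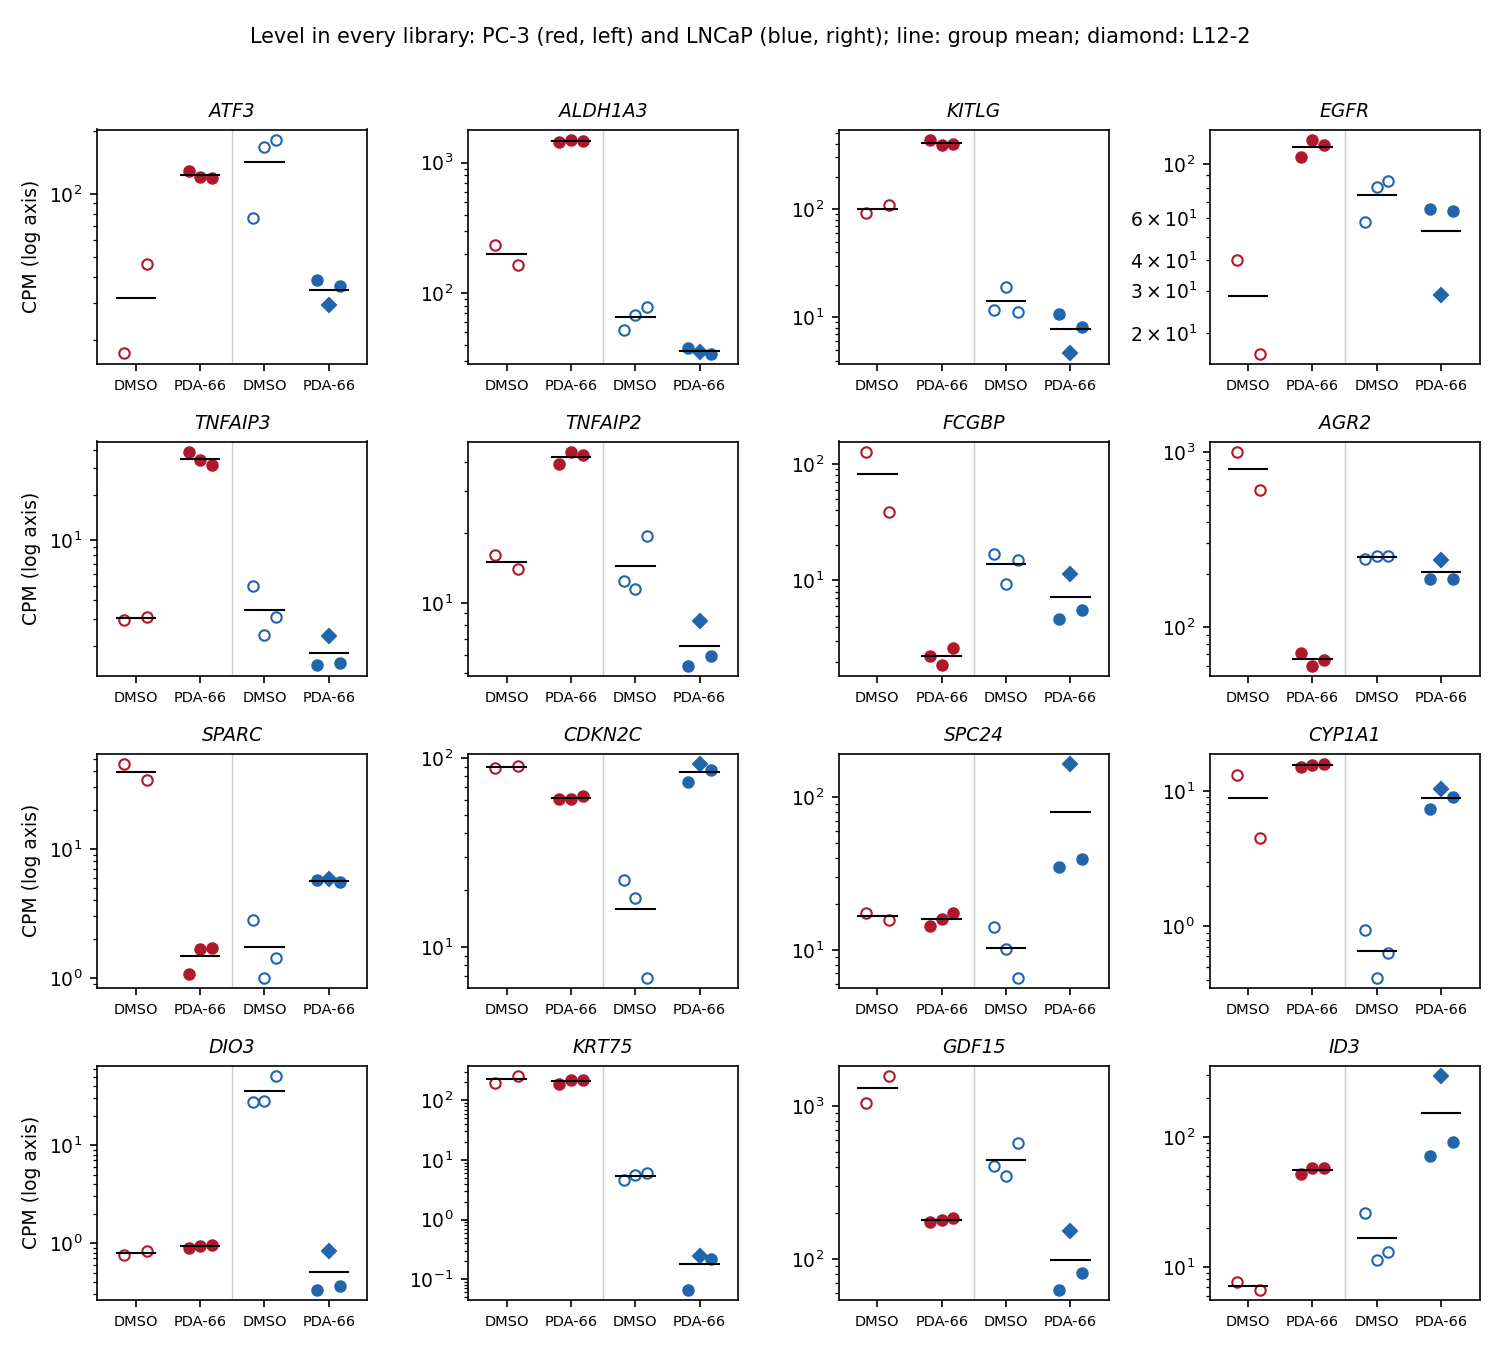
Level in CPM (log axis) of 16 genes in each of the 11 libraries, with PC-3 in red and LNCaP in blue, open symbols for DMSO, filled for PDA-66, a line for the group mean and a diamond for L12-2. ATF3 and SPARC change in opposite directions in the lines, DIO3 and KRT75 change in LNCaP, and GDF15 and ID3 move the same way in both.

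The 3 genes that passed the test in LNCaP with all libraries were CYP1A1, DIO3 and KRT75, and all 3 differed between the lines. CYP1A1, a cytochrome P450 and the classical target of the aryl hydrocarbon receptor (AHR), rose in LNCaP from 0.935, 0.419 and 0.635 CPM (13, 5 and 8 counts) to 7.4, 10.4 and 9.11 CPM (110, 125 and 125 counts), a log2 response of 3.72 (edgeR adjusted p = 0.0216). In PC-3 the controls were at 13.3 and 4.48 CPM and the PDA-66 libraries at 15.2, 15.6 and 15.9 CPM, so that the 2 controls differed from each other by more than the higher of them differed from the treated libraries. The difference was -2.91 ± 0.564 (SE; edgeR adjusted p = 0.0135), and -2.79 without L12-2.

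DIO3, the deiodinase that inactivates thyroid hormone, was at 27.5, 28.6 and 50.7 CPM in the LNCaP controls and at 0.337, 0.83 and 0.365 CPM after PDA-66 (5, 10 and 5 counts). In PC-3 it stayed between 0.763 and 0.966 CPM. KRT75, a type II keratin, went from 4.67, 5.62 and 5.95 CPM to 0.0673, 0.249 and 0.219 CPM in LNCaP (1, 3 and 3 counts) and overlapped between the groups in PC-3 (187 to 254 CPM). The differences were 6.37 for DIO3 and 4.79 for KRT75 (edgeR adjusted p = 0.000291 and 0.000254), or 6.86 and 5.08 without L12-2, and both rest on LNCaP groups with few reads after PDA-66.

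The remaining description follows lists of genes with a known role, 28 lists with 574 genes, of which 482 were tested and 50 called for the difference (10.4%, against 5.76% of all genes tested). These lists were chosen with earlier results of these data known, so their higher share is not an independent result. The lists described are those in the plot of medians, and counts per list are given for the difference with all libraries and without L12-2. Over all genes tested, 5.76% and 21.2% were called for the difference, and the median log2 difference was -0.06 and -0.01. The shares of all genes tested that changed in a line were 27.1% up and 27.7% down in PC-3, and 7.84% up and 7.91% down in LNCaP without L12-2. Each list is described by its counts and medians alone.

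**Figure D4:**
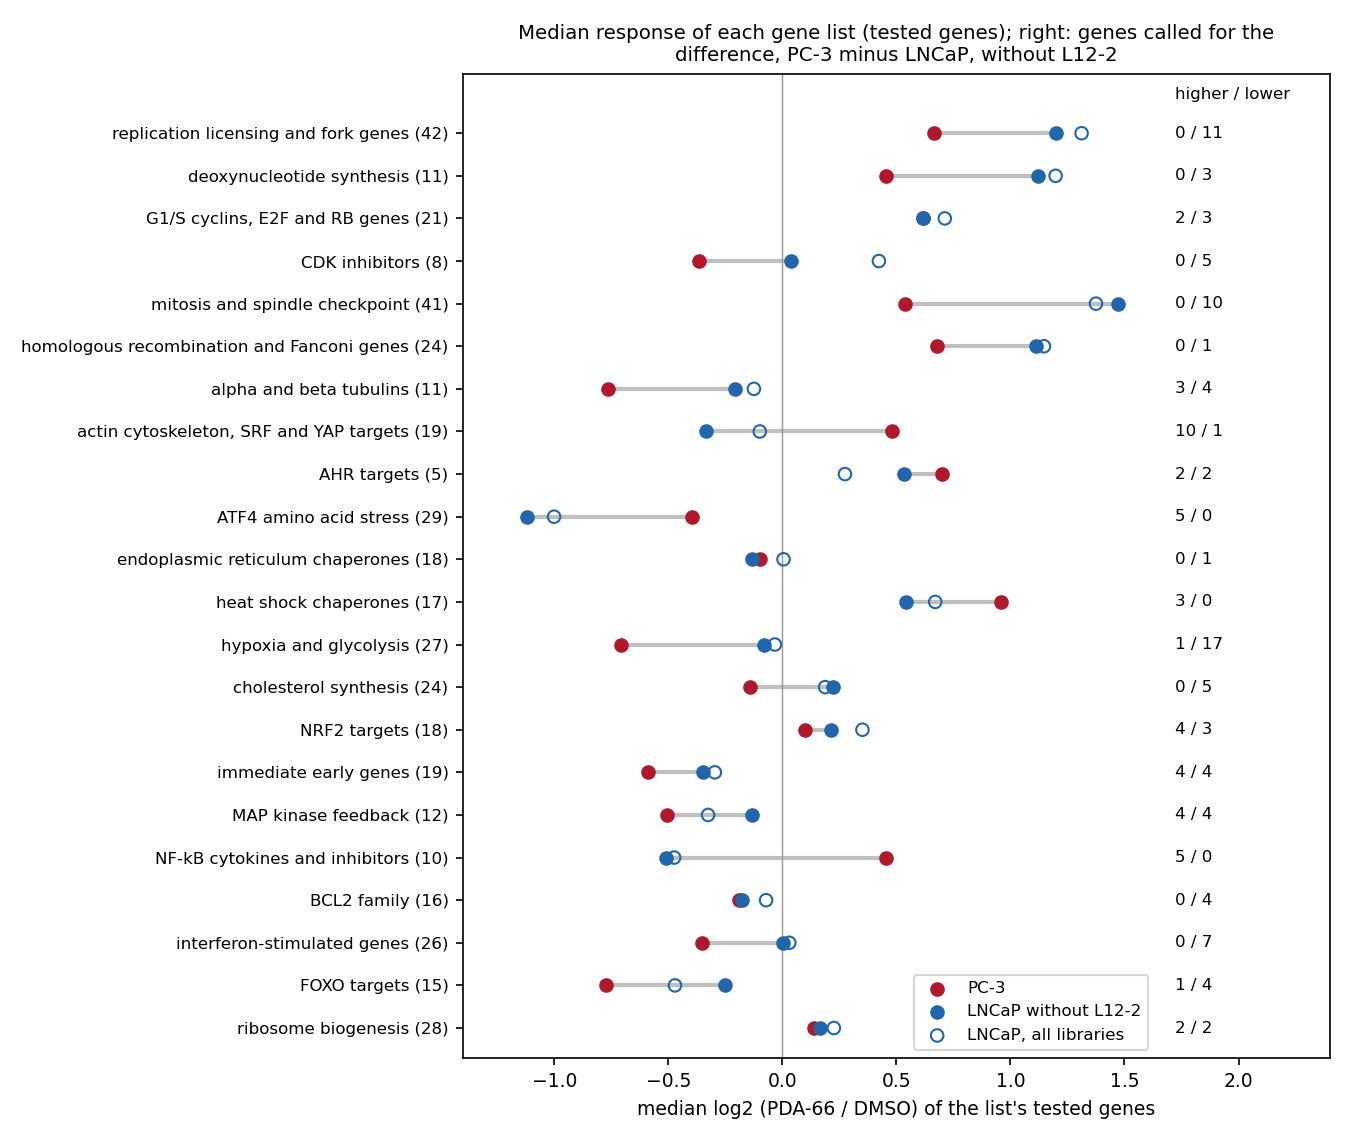
Median log2 response of the tested genes of 22 lists in PC-3 (red) and LNCaP (filled blue without L12-2, open blue with all libraries), with the number of tested genes behind the name and, at the right, how many genes were called higher or lower in PC-3 without L12-2. Replication and mitosis lists lie right of 0 in both lines and farther right in LNCaP.

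Of the 42 genes that license replication origins or work at the fork, all tested, 33 rose and 1 fell in PC-3 (median log2 response 0.67), and 37 rose in LNCaP without L12-2 (median 1.20). By edgeR 0 were called for the difference with all libraries, at a median of -0.53, against 16 at an unadjusted p below 0.05, 9 by DESeq2 and 24 by voom with sample weights, and 11 were lower in PC-3 without L12-2. CDC45, part of the replicative helicase, went from 32.4 and 30.3 CPM to 51.1, 53.3 and 52 CPM in PC-3 and from 23.4, 25.3 and 17 CPM to 74, 142 and 74.1 CPM in LNCaP. Its difference was -1.41 (edgeR adjusted p = 0.0535) and, without L12-2, -1.02 (edgeR adjusted p = 0.00476). MCM7, a further helicase subunit, had differences of -0.94 and -0.69.

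The 41 genes of mitosis and the spindle checkpoint behaved in a similar way: 27 rose and none fell in PC-3 (median 0.54), and 36 rose in LNCaP without L12-2 (median 1.47). With all libraries 2 were called lower in PC-3 (4.88%, against 5.76% of all genes tested called either way). Without L12-2 there were 10, where 21.2% of all genes tested were called. The median difference was -0.90 and -0.97. The 2 called with all libraries were the phosphatases that activate CDK1, CDC25B and CDC25C. CDC25B was at 201 and 225 CPM in the PC-3 controls and at 189.8, 209 and 203 CPM after PDA-66, which overlapped, and in LNCaP it went from 87.4, 59 and 54.8 CPM to 141, 237 and 163 CPM. Its difference was -1.51 ± 0.335 (SE; edgeR adjusted p = 0.026) and -1.27 without L12-2, and it lost its call when any one of 7 libraries was left out. CDK1, the kinase that drives entry into mitosis, was at 209.9 and 249 CPM in the PC-3 controls and 292, 246 and 255 CPM after PDA-66, and went from 155, 136 and 61 CPM to 506, 282 and 444 CPM in LNCaP. Its difference was -1.60 (edgeR adjusted p = 0.0659), and -1.81 without L12-2 (edgeR adjusted p = 0.00533). The LNCaP control LD3 was the lowest of the 3 controls for CDK1, CDC25B, CDC45 and SPC24.

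Of the 24 genes of homologous recombination and the Fanconi pathway, 21 rose in PC-3 and 19 in LNCaP without L12-2, and 1, FANCD2, was called for the difference (-1.04, edgeR adjusted p = 0.0498), a call that was lost when any one of 9 libraries was left out. Without L12-2, 1 gene of this list was called lower in PC-3, FANCD2 being at -1.01. Of the 11 genes of deoxynucleotide synthesis, 7 rose in PC-3 and 10 in LNCaP without L12-2, and 0 were called for the difference with all libraries by edgeR (4 at an unadjusted p below 0.05, 1 by DESeq2, 5 by voom with sample weights) and 3 without L12-2. Among the 21 tested genes (22 listed) of the G1/S cyclins, E2F factors and RB family, CCNE1, cyclin E1, was called higher in PC-3 and E2F2, an activating E2F factor, lower, and 2 genes were higher and 3 lower without L12-2. CCNE1 went from 2.57 and 1.45 CPM to 10.8, 9.78 and 11.2 CPM in PC-3 and from 16.3, 13.1 and 10.8 CPM to 20, 26.1 and 21.1 CPM in LNCaP, a difference of 1.65 (edgeR adjusted p = 0.0245) and, without L12-2, of 1.78. E2F2 overlapped between the PC-3 groups (14.4 and 17.8 against 15.5, 14.3 and 15.9 CPM) and had a difference of -1.64 (edgeR adjusted p = 0.0357) and, without L12-2, of -1.45. The calls of CCNE1 and E2F2 were lost when any one of 5 and 6 libraries was left out.

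The 8 CDK inhibitors had a median difference of -1.39, the lowest among the lists of the cell cycle. CDKN2B, CDKN2A and CDKN2C, which encode p15-INK4B, p16-INK4A with p14-ARF and p18-INK4C, were called lower with all libraries, and 5 of the 8 without L12-2. CDKN2B fell in PC-3 from 256 and 320.4 CPM to 48.2, 44.7 and 46.9 CPM, and in LNCaP all libraries were between 1.48 and 2.43 CPM. CDKN2A fell in PC-3 from 199 and 209 CPM to 79.8, 79.5 and 84 CPM, and in LNCaP it was between 4.84 and 8.72 CPM. The difference was -2.34 ± 0.29 for CDKN2B and -1.76 ± 0.267 for CDKN2A (SE; edgeR adjusted p = 0.00253 and 0.00549), and without L12-2 the values were -2.31 and -1.54. CDKN1A, the p21 gene, was set apart by a control: LD1 was at 703 CPM and LD2 and LD3 at 178 and 244 CPM, while the LNCaP PDA-66 libraries were at 281, 879 and 344 CPM.

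Promoters of these lists shared sequence motifs. Windows of 300 bases around the start site (RefSeq, GRCh38.p14) were searched on both strands for the cell cycle homology region (CHR), whose letters are TTTGAA, for the CCAAT box, and for the core of the AHR response element, which is GCGTG. E2F sites were searched as TTGGCGC and also in the form TTCCCGC, on both strands too. CHR was in 23 of 35 mitosis promoters (65.7%), against 9.35% of the 9621 tested genes with a promoter and 15.4% of all 27305 promoters. CCAAT was in 26 of them (74.3%), against 37.3% of tested genes and 35.7% of all. E2F motifs were in 22 of 36 promoters of the replication list (61.1%) and in 13 of 22 of the recombination list (59.1%), against 15.3% of tested genes and 9.33% of all. GCGTG was in all 5 promoters of the tested AHR targets and in 52.2% of tested genes and 36.3% of all. For the genes called for the difference themselves, the shares were near those of the tested genes: CHR in 8.43% of 261 promoters with a positive and 11.7% of 282 with a negative difference, and E2F motifs in 11.1% and 13.8%. The 3 windows printed here belong to the AHR target that rose in LNCaP and to cell cycle genes with larger LNCaP responses. They are at chr15:74725479-74725778 (CYP1A1, minus strand), chr1:23531184-23531483 (E2F2, minus strand) and chr10:60778081-60778380 (CDK1, plus strand) of GRCh38.p14. The capitals mark GCGTG or its reverse complement in CYP1A1 (57 bases before the start site), the E2F motif in E2F2 (41 bases before it), and CHR followed by CCAAT in CDK1 (161 and 150 bases before it). Other copies of the motifs searched, such as TTGGCGC in CDK1 and CCAAT in CYP1A1, were left in small letters.
CYP1A1: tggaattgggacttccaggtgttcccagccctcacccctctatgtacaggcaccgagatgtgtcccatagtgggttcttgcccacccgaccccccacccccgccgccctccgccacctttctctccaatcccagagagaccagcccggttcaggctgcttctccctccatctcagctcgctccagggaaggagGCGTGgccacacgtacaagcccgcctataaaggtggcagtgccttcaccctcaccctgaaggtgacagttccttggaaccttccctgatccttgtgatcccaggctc
E2F2: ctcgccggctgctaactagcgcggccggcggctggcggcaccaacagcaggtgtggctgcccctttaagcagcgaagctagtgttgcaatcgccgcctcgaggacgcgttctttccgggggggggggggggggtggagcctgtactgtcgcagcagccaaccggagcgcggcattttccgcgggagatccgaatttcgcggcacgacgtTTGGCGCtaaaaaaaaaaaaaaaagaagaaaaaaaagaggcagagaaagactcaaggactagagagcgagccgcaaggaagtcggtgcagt
CDK1: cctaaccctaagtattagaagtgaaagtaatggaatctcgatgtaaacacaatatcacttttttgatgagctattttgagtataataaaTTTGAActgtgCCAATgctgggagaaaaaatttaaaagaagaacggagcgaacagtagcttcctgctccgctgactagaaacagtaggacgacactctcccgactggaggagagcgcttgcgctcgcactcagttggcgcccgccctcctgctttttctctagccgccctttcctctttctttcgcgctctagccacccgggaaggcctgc

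Of 11 tested alpha and beta tubulins (16 listed), 2 were called higher and 4 lower in PC-3 with all libraries, and 3 higher and 4 lower without L12-2. Of them, 7 fell in PC-3 (median response -0.76) against 4 in LNCaP without L12-2 (median -0.21). TUBB4B, a widely expressed beta tubulin, fell in PC-3 from 883 and 847 CPM to 347, 375 and 362 CPM, and in LNCaP it went from 317, 223 and 206 CPM to 347, 738 and 404 CPM, the highest of them L12-2. Its difference was -2.26 ± 0.391 (SE; edgeR adjusted p = 0.00888) and -1.85 without L12-2. TUBB4A went the other way: 33.9 and 22.4 against 23.1, 24.4 and 24.4 CPM in PC-3, and 4.82, 4.53 and 5.24 against 1.08, 1.41 and 0.875 CPM in LNCaP, a difference of 1.89 ± 0.332 (SE; edgeR adjusted p = 0.00915), and 2.07 without L12-2. TUBA1B and TUBB were called lower as well, with differences of -1.64 and -1.48, or -1.51 and -1.64 without L12-2. Tubulin genes are near copies of each other, and how reads that match several of them were counted is not stated.

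Of the 27 tested genes of hypoxia and glycolysis (29 listed), 23 fell and 1 rose in PC-3 (median -0.71), 5 fell in LNCaP without L12-2 (median -0.08), and 6 were called lower with all libraries and 17 lower and 1 higher without L12-2 (median difference -0.92 and -0.72). NDRG1, induced by hypoxia and by androgen, fell in PC-3 from 1749.5 and 1499.6 CPM to 360.1, 392 and 411 CPM. In LNCaP it was at 129, 139 and 134 CPM in the controls and at 96.2, 151 and 109 CPM after PDA-66, which overlapped. Its difference was -1.89 ± 0.264 (SE; edgeR adjusted p = 0.00395), and -1.68 without L12-2. PGK1, a glycolytic kinase, fell in PC-3 from 2899 and 2483 CPM to 1252, 1308 and 1256 CPM, overlapped between the LNCaP groups (462 to 629.5 CPM), and had a difference of -1.28 ± 0.213 (SE; edgeR adjusted p = 0.00792), and of -1.22 without L12-2. ALDOC and BNIP3 had differences of -1.91 and -1.45, or -1.71 and -1.56 without L12-2.

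**Figure D5:**
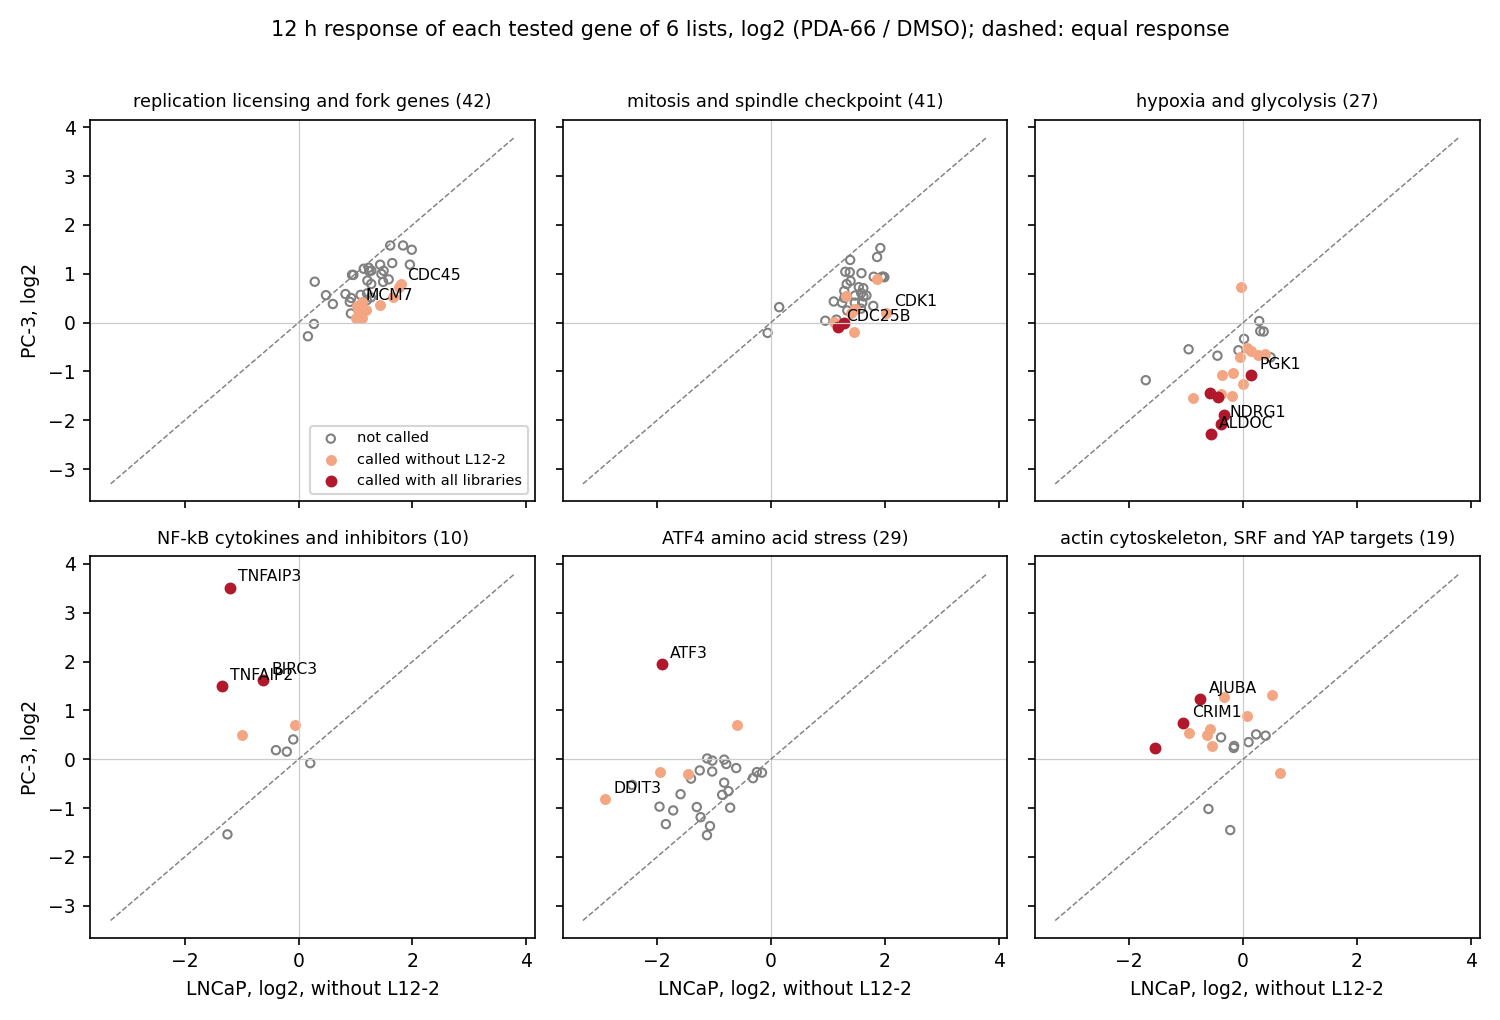
Log2 response of each tested gene of 6 lists in PC-3 (vertical axis) against LNCaP without L12-2 (horizontal axis), with genes called for the difference with all libraries in dark red and those called after leaving out L12-2 alone in orange. Most replication and mitosis genes lie below the dashed line of equal response in the upper right quadrant, most hypoxia genes lie below 0 on the PC-3 axis, and the called NF-kB genes lie above the dashed line.

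Of 10 tested cytokines and inhibitors of NF-kB signaling (25 listed), TNFAIP3, TNFAIP2 and BIRC3 were called higher in PC-3 with all libraries and 5 genes without L12-2, with none lower, and the median difference was 0.55. TNFAIP3, the A20 protein that ends NF-kB signaling, rose in PC-3 from 2.98 and 3.1 CPM to 38.4, 34.3 and 31.8 CPM. In LNCaP it was at 4.96, 2.35 and 3.1 CPM in the controls and at 1.48, 2.32 and 1.53 CPM after PDA-66. The difference was 4.49 ± 0.429 (SE; 95% interval 3.55 to 5.43; edgeR adjusted p = 0.000414), the largest of any gene on the lists, and 4.73 without L12-2. BIRC3, a ubiquitin ligase that restrains cell death, rose in PC-3 from 9.5 and 9.51 CPM to 35.5, 26.5 and 25.5 CPM and had a difference of 2.44 ± 0.391 (SE; edgeR adjusted p = 0.00675), and of 2.24 without L12-2.

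Of the 19 tested genes (27 listed) of the actin cytoskeleton and targets of SRF and YAP, 3 were called higher with all libraries (CRIM1, AJUBA and AMOTL2) and 10 higher and 1 lower without L12-2, with a median difference of 0.63 and 0.82. AJUBA, an adaptor of cell junctions that restrains the Hippo kinases, went from 65.2 and 86.1 CPM to 182, 179 and 174 CPM in PC-3, and from 37.9, 69.9 and 74.8 CPM to 35.7, 44.3 and 36.3 CPM in LNCaP, where LD1 overlapped the treated libraries. Its difference of 1.89 ± 0.363 (SE; edgeR adjusted p = 0.013) was lost without PD2 (value 1.70) and without PD3 (value 2.10), and was 1.99 without L12-2.

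Of 29 tested targets of ATF4 (31 listed), the factor that answers amino acid shortage, 15 fell and 2 rose in PC-3 (median -0.40) and 13 fell in LNCaP without L12-2 (median -1.12). ATF3 alone was called for the difference with all libraries (3.45%, against 5.76% of all genes tested). Without L12-2, where 21.2% of all genes tested were called, 5 genes were higher in PC-3, DDIT3 among them. DDIT3, the CHOP protein, fell in both lines, from 62.6 and 129.5 CPM to 52, 55.6 and 55.8 CPM in PC-3 and from 49.2, 101 and 125 CPM to 11.7, 19.3 and 12.7 CPM in LNCaP, with a difference of 1.84 (edgeR adjusted p = 0.0675) and 2.09 without L12-2 (edgeR adjusted p = 0.00925). The control LD1 was the lowest of the LNCaP controls for ATF3 and DDIT3. Of 17 tested heat shock chaperones (18 listed), 16 rose in PC-3 (median 0.96) and 8 in LNCaP without L12-2 (median 0.54), and HSPD1, the mitochondrial chaperonin, was called (0.80, edgeR adjusted p = 0.0371), a call lost when any one of 8 libraries was left out and after the correction for GC content and length. Without L12-2, 3 of these chaperones were higher, HSPD1 being at 0.79. The endoplasmic reticulum chaperones (18 tested) had a median response of -0.10 in PC-3 and -0.13 in LNCaP without L12-2, and 0 were called for the difference with all libraries by edgeR (2 at an unadjusted p below 0.05, 0 by DESeq2, 4 by voom with sample weights) and 1 without L12-2.

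Genes of the luminal prostate epithelium were among those called lower in PC-3. HPGD, which degrades prostaglandins, fell in PC-3 from 226 and 285 CPM to 41.4, 36.7 and 40.3 CPM and had a difference of -2.36 ± 0.263 (SE; edgeR adjusted p = 0.00144), and of -2.46 without L12-2. HOXB13, a homeobox factor of prostate epithelium, fell in PC-3 from 832 and 772 CPM to 248, 257 and 264 CPM, was between 371 and 744 CPM in LNCaP, and had a difference of -1.99 ± 0.341 (SE; edgeR adjusted p = 0.00858), and of -1.64 without L12-2. ACPP and TRPM8 had differences of -2.82 and -3.07, or -2.96 and -3.15 without L12-2. Both rest on low PC-3 levels. ACPP was at 17.9 and 13.4 CPM in the PC-3 controls and at 0.619, 0.865 and 1.03 CPM after PDA-66. TRPM8 was at 1.53 and 2.76 CPM and then at 0.563, 0.266 and 0.302 CPM. ACPP also fell in LNCaP (log2 response -1.26 without L12-2, edgeR adjusted p = 0.00547).

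MYC fell in PC-3 from 749 and 811 CPM to 226, 217 and 241 CPM and overlapped between the LNCaP groups (201 to 306 CPM), a difference of -1.48 ± 0.247 (SE; edgeR adjusted p = 0.00792), and of -1.45 without L12-2. It stood on the lists of immediate early genes (19 tested, 2 higher and 1 lower) and of ribosome biogenesis (28 tested, 1 higher and 1 lower), whose median differences were -0.02 and -0.09. Without L12-2, 4 immediate early genes were higher and 4 lower, and 2 ribosome biogenesis genes were higher and 2 lower. Of the 12 tested genes of MAP kinase feedback, 2 were higher and 2 lower with all libraries and 4 and 4 without L12-2, and SPRY1, an inhibitor of receptor tyrosine kinase signaling, fell in PC-3 from 95.3 and 109 CPM to 44.1, 40.5 and 45 CPM and, without overlap, went in LNCaP from 20.7, 15.8 and 19.7 CPM to 27.5, 29.1 and 28.6 CPM. Its difference was -1.84 ± 0.237 (SE; edgeR adjusted p = 0.00269), and -1.82 without L12-2. Of 15 tested FOXO targets, 11 fell in PC-3 and 7 in LNCaP without L12-2, and 3 (BCL6, KLF9 and FBXO32) were called lower, and 4 lower and 1 higher without L12-2. Of 26 tested interferon-stimulated genes, 1 (OAS1, -2.15, or -2.07 without L12-2) was called lower and 7 without L12-2. Of 18 tested NRF2 targets, GSR, which recycles glutathione, was called lower (-1.50, or -1.42 without L12-2) and HMOX1, heme oxygenase 1, higher (1.77, or 1.90), and 4 of these targets were higher and 3 lower without L12-2. Of 5 tested AHR targets (12 listed), 4 rose in PC-3 and 3 in LNCaP without L12-2, and CYP1A1 was called with all libraries and 2 genes higher and 2 lower without L12-2. Cholesterol synthesis (24 tested) had 0 calls with all libraries by edgeR (7 at an unadjusted p below 0.05, 4 by DESeq2, 7 by voom with sample weights) and 5 lower without L12-2, and the BCL2 family (16 tested) had 1, BNIP3, and 4 lower without L12-2. Of the 4 marker lists that checked the labels, few members passed the filter in both lines: 5 of 10 luminal markers, 2 of 10 markers of PC-3, 2 of 9 neuroendocrine markers and 2 of 11 markers of fibroblasts and immune cells. Among these, ENO2 and COL3A1 were called lower in PC-3 (-1.13 and -3.58, or -0.85 and -3.19 without L12-2), and the call of ENO2 was lost when any one of 8 libraries was left out.

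The genes with the largest changes in the same direction in both lines without L12-2, and no call for the difference, included C1orf228, GDF15, C10orf10, ID3 and TNFSF15. GDF15, a stress-induced cytokine, fell in PC-3 from 1038 and 1561 CPM to 174, 181 and 186 CPM and in LNCaP from 407, 348 and 576 CPM to 63.5, 154 and 81.1 CPM. Its difference was -0.69 (95% interval -1.69 to 0.31; edgeR adjusted p = 0.376) and -0.23 without L12-2, and with all libraries a difference of up to 1.69 in size is within the interval. ID3, an inhibitor of basic helix-loop-helix factors, rose in PC-3 from 7.63 and 6.69 CPM to 52.2, 57.5 and 58.2 CPM and in LNCaP from 25.9, 11.2 and 12.9 CPM to 71.5, 296 and 92 CPM, the highest of them L12-2. Its difference was -0.23 (95% interval -1.81 to 1.35; edgeR adjusted p = 0.87) and, without L12-2, 0.68 (edgeR adjusted p = 0.23). For these 5 genes, the data do not show that the responses were equal.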

How the data were processed

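Poly(A) RNA libraries of PC-3 and LNCaP cells were sequenced by the authors, who aligned the reads to hg19 with STAR in a BaseSpace workflow and deposited read counts per RefSeq gene, 1 table for each cell line. STAR 2.3.1s and edgeR 3.14.0 are named in the submitters' processing notes. Whether counting used the strand is not given in the sources used here. The count values were used as deposited, in 11 libraries, and all 23708 symbols joined the tables.

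Genes passing filterByExpr in each line (13647 in PC-3, 13015 in LNCaP, 11961 in both) were tested in R 4.3.3 with edgeR 4.0.16, using TMM factors within each line and a quasi-likelihood fit of the 4 groups with line and treatment as an interaction. Responses of a line came from a fit of that line alone. P-values were adjusted after Benjamini-Hochberg over all genes tested, at a threshold of 0.05, and SE is the log2 value divided by the root of its F statistic. CPM values are on the TMM-scaled totals of a line.

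Genes were named by rule: the 10 largest differences in each direction among those called with and without L12-2 at a mean of at least 10 CPM in each line, the 6 largest opposite and the 6 largest shared changes without L12-2 (with all libraries no gene qualified), the genes called in LNCaP, and the genes of each list with the smallest p-values. The comparison and the lists were chosen with earlier results of these data known. Positions are from the GRCh37 annotation (10727 tested genes matched) and promoters from RefSeq GRCh38.p14. Tested on simulated counts of this comparison (11961 genes), the test found 79 of 100 genes with a true log2 difference of 2 and 100 of 100 with a difference of 3, and called 2 of 11761 unchanged genes. Those counts were drawn with 1 common spread for every gene of a line and without the GC skew of L12-2. How often the test finds or wrongly calls genes in the real libraries was therefore not measured. Precision is set by 2 or 3 libraries per group. Alternatives were other scaling factors, filters and tests (DESeq2 1.42.0, limma 3.58.1), the 24 h groups in the fit, a replicate block, and each library left out. A correction for GC content and length was added after the data were seen. Some genes that the rules selected, and lists tied to them, are not reported here.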

Additional observations from a re-analysis of the deposited data

Results flagged for a closer look

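The difference between the PC-3 and LNCaP responses passed the edgeR quasi-likelihood interaction test for 689 of 11961 genes, and 69 of them are named genes. With a replicate block in the fit, 28 of the 69 lost the call, CYP1A1 and TUBB4A among them. The values are log2 differences, PC-3 minus LNCaP, with all libraries, and each of the 69 genes kept its sign without L12-2.

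The call held whichever of the 11 libraries was left out for 33 of these genes. Higher in PC-3 were DIO3 (6.37), KRT75 (4.79), TNFAIP3 (4.49), C8orf4 (4.11), ATF3 (3.97), ALDH1A3 (3.75), KITLG (2.85), TNFAIP2 (2.64), BIRC3 (2.44) and TUBB4A (1.89). Lower in PC-3 were PGK1 (-1.28), MYC (-1.48), GSR (-1.50), CDKN2A (-1.76), SPRY1 (-1.84), NDRG1 (-1.89), ALDOC (-1.91), HOXB13 (-1.99), TUBB4B (-2.26), CDKN2B (-2.34), HPGD (-2.36), C21orf58 (-2.76), ACPP (-2.82), TTN (-2.84), CYP1A1 (-2.91), CDKN2C (-2.95), TRPM8 (-3.07), AGR2 (-3.34), MSMP (-3.61), HEY1 (-3.72), FCGBP (-4.23), CCDC141 (-5.23) and SPARC (-6.43).

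For the other 36 genes the call was lost without at least 1 library. Higher in PC-3 were AKAP5 (3.22), UNC13D (2.85), EGFR (2.55), SAMD12 (2.50), HIVEP1 (2.43), MICAL2 (2.37), NAV1 (2.32), ETV5 (1.96), AJUBA (1.89), CRIM1 (1.89), HMOX1 (1.77), DUSP4 (1.76), CCNE1 (1.65), AMOTL2 (1.64), POLR1A (1.39), DUSP1 (1.19), KIAA0247 (1.12) and HSPD1 (0.80). Lower in PC-3 were FANCD2 (-1.04), ENO2 (-1.13), BCL6 (-1.32), FBXO32 (-1.33), CDC25C (-1.35), KLF9 (-1.41), BNIP3 (-1.45), TUBB (-1.48), CDC25B (-1.51), PHLDA1 (-1.55), E2F2 (-1.64), TUBA1B (-1.64), OAS1 (-2.15), MXD3 (-2.84), PNPLA7 (-2.94), SPC24 (-3.03), SLPI (-3.39) and COL3A1 (-3.58). No call of the 69 was lost without L12-2. For genes named for the largest differences or opposite changes the naming rule fixed this in advance. All 689 genes called were also called without it. Without PD2 or PD3 a single PC-3 control remained, so the weight of that library and the loss of replication cannot be told apart.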

How the results depend on the processing

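The count of 689 genes stayed within 1.5 times under other size factors, library size alone, other filters, joint TMM scaling, voom with 1 weight per cell line and a minimum log2 size of 1 (640 to 885). With library size alone, 382 were higher and 284 lower in PC-3, against 321 and 368. It was 1275 by the edgeR likelihood ratio test, 1411 by DESeq2, 3256 by voom with sample weights, 2081 with the 24 h groups in the fit, 1989 after the GC content and length correction (chosen after seeing the data; 592 of 620 genes that could be corrected stayed called and all 620 kept their sign), and 9 at an adjusted p below 0.001. Leaving out 1 library gave 162 to 2539 (258 without P12-1, 253 without P12-2). The genes of the lists (50 called) gave 95, 103, 236, 138 and 122 under the first 5 of these settings in the same order, and 23 to 151 with 1 library left out (31 without P12-1, 30 without P12-2). For PC-3 alone (6564), the count was 2139 at an adjusted p below 0.001, 1698 at a log2 size of at least 1, and 4956 to 8391 with 1 library left out. For LNCaP alone (3), it was 234 without a filter, 852, 873, 4621, 1051 and 1263 under the 5 settings, 0 at an adjusted p below 0.001, and 0 to 1884 with 1 library left out. Of the genes called for the difference, 626 were called in PC-3 alone, 3 in LNCaP alone and 60 in neither. These were 7, 0 and 2 at an adjusted p below 0.001, and 1821, 287 and 120 without L12-2, where 155 opposite, 156 unequal and 1009 shared changes were also called. The causes were not tested. Same-numbered LNCaP libraries correlated at -0.278, -0.503 and -0.217 in their deviations from the group means, and the PC-3 pair at -0.159. Deviations within a group of 2 or 3 libraries sum to 0, so these values cannot settle whether the numbers are a pairing. With a replicate block, 188 genes were called, 187 of them among the 689, and 24 genes of the lists. Of the 69 named genes called, 28 lost the call with this block. Of 3065 values of named genes under the alternatives, 2557 kept their side of the threshold, 278 gained and 230 lost the call, and none changed sign where called. Of the 69 named genes called, 33 stayed called whichever library was left out. The LNCaP spread and the 2 PC-3 controls limit what could be called.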
